A study of Mus musculus with 4 samples.

Results

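A set of 9 early lymphoid priming genes was followed in hematopoietic stem and progenitor cells of young and old mice. They are Dntt, Tcrg-C1, Tcrg-C2, Tcrg-C4, Il7r, Ebf1, Satb1, Notch1 and Vpreb1, chosen by gene symbol. All 9 were found among the 28692 genes of the count matrices in each of the 4 pools. The cells were Lin-, Sca1+, cKit+ and Flt3- bone marrow cells of male C57BL/6-CD45.2 mice for which the labels name no genetic change or treatment. The gate holds long-term and short-term stem cells and the multipotent progenitors MPP2 and MPP3. Single cells were captured with the 10x Genomics 3′ v2 kit, which counts each captured RNA molecule by a unique molecular identifier (UMI). Pool young A held cells of 2 mice and young B of 3 mice, given as 2 months old by the series title. Pool old A held cells of 3 mice and old B of 2 mice, given as 18 months old. The study's methods give a range for each age, with 2 months its lower end for young and 18 months its upper end for old mice. The A pools were captured and sequenced at the HalioDX facility and the B pools at TGML, and the mice within a pool cannot be told apart. Ages follow the sample titles and source names. In the description field, young B and old A carry the other age, and old A also another number of mice, so that the numbers of mice follow the study's methods.

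Lymphocytes descend from stem cells through multipotent progenitors that begin to transcribe lymphoid genes at a low level before they lose other fates, a state called lymphoid priming. The genes differ in their roles. Dntt encodes terminal deoxynucleotidyl transferase, which adds bases to antigen receptor junctions while they are recombined, and the Tcrg-C genes encode constant regions of the T cell receptor gamma chain. Il7r encodes the alpha chain of the interleukin 7 receptor, and Notch1 a receptor that drives T cell specification in the thymus. Ebf1 is a transcription factor of B cell specification, Satb1 a chromatin organiser that favours lymphoid fates in stem cells, and Vpreb1 a part of the surrogate light chain of the pre-B cell receptor.

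On build GRCm38 the 6 protein-coding members lie on separate chromosomes, with Dntt at chr19:41029275-41059525 on the plus strand and Satb1 at chr17:51736187-51833290 on the minus strand. Tcrg-C1 at chr13:19214103-19217024, Tcrg-C2 at chr13:19304649-19307551 and Tcrg-C4 at chr13:19344558-19352756 belong to a single locus. Il7r lies at chr15:9505788-9530176, Ebf1 at chr11:44617317-45008091, Notch1 at chr2:26457903-26516663 and Vpreb1 at chr16:16868403-16870843. Other annotated genes overlap Satb1 and Notch1 on the same strand and Ebf1 and Vpreb1 on the other strand, so counts of these 4 genes are uncertain where a read falls in an overlap. Dntt and Satb1 each passed the test in all 3 comparisons by marker transcript, both higher with Flt3 and Cd48 and both lower with Slamf1, so the 250 bases before their RefSeq starts (GRCm38.p6) are shown 5′ to 3′, at chr19:41029025-41029274 (plus strand) and chr17:51833291-51833540 (minus strand, the most upstream of 5 starts). Capitals mark GGGAA, the core read by the Ikaros family of lymphoid transcription factors, or TTCCC, the same core on the other strand.
Dntt: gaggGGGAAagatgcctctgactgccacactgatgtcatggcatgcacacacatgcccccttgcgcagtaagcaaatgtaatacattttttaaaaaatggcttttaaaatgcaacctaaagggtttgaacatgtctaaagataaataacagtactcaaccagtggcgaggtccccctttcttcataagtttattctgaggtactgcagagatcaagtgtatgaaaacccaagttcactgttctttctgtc
Satb1: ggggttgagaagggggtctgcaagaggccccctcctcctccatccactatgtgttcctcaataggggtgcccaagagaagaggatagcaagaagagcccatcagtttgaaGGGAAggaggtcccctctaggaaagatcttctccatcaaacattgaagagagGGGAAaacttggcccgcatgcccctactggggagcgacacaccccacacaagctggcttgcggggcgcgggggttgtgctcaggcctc
The Dntt window held 1 such core and the Satb1 window 2, and 56.2% of 32851 promoter windows of the same length held at least 1. E-boxes, CANNTG on either strand, were found 3 times before Dntt and 0 times before this Satb1 start, against 66.2% of windows with at least 1. The RUNX motif TGTGGT was in neither window and in 14% of all windows. Matches of different motifs can share bases and were counted separately, and a match describes the sequence only. Of the 9 genes, 6 were in the RefSeq promoter table.

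After filtering, 14915 of 15566 barcodes were kept, with 5189 and 2244 cells in young A and young B and 3328 and 4154 in old A and old B. The kept cells of a pool summed to 16399999 to 36446168 UMIs, and a cell held a median of 5674 to 6719. Transcripts of the sort markers were seen in every pool, Kit in 39.6% to 59.8% of cells and Ly6a, which encodes Sca1, in 55.04% to 80.0%. Pools shared 8 to 26 barcode sequences by pair. Levels are given as CPM, the UMIs of a gene scaled to a common library total. Several other measures differed between pools. Cells with an Flt3 UMI made up 23.7% and 9.80% of young A and young B and 5.65% and 1.88% of old A and old B, although the sort gated against Flt3 protein. The B cell marker list summed to 664 to 669 CPM in young and 2587 to 4177 CPM in old pools, with 1 to 3 of its 10 genes at 0 in each pool, and the plasma cell list to 130 to 143 and 384 to 1363 CPM, with 1 of 8 genes at 0 in each young pool. The immediate-early list reached 3811 CPM in old A and 388 to 1090 CPM in the other pools. Their part in the results was not tested.

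Dntt was the member with the smallest adjusted p between ages. Its level was 7.41 CPM in young A (270 UMIs) and 10.2 CPM in young B (168 UMIs), against 0.337 CPM in old A (7 UMIs) and 0.751 CPM in old B (25 UMIs). Both old pools lay far below both young pools, 22.0-fold on platform A (95% counting interval 10.5 to 55.2) and 13.6-fold on platform B (8.93 to 21.7). The fitted log2 fold change of old over young was -4.06 (SE 0.32, adjusted p = 0.0141, edgeR over all genes tested). Cells with a Dntt UMI made up 1.58% and 2.23% of the young pools and 0.180% and 0.193% of the old pools. A positive cell held 3.29 and 3.36 Dntt UMIs on average in the young pools, 1.17 in old A and 3.13 in old B. A single cell held 67 of the 168 Dntt UMIs of young B, and another 9 of the 25 of old B. The counting intervals of the folds do not cover this spread between cells. In a sum over a pool, fewer cells with a transcript and less transcript per cell cannot be told apart.

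The constant region genes of the T cell receptor gamma chain were also lower in both old pools than in both young pools. Tcrg-C1 stood at 1.21 CPM in young A, 4.63 in young B, 0.0962 in old A and 0.0601 in old B, the last 2 from 2 UMIs each. The ratio of young to old was 12.5 on platform A (counting interval 3.27 to 107) and 77.1 on platform B (20.6 to 648). The log2 fold change was -5.16 (SE 0.73, adjusted p = 0.0455), but a single cell held 41 of the 76 Tcrg-C1 UMIs of young B. Counting each gene at most 1 time per cell, a setting chosen after the data had been seen, the adjusted p of Tcrg-C1 was 0.117 and that of Dntt 0.0262.

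Tcrg-C4 stood at 1.67, 3.66, 0.914 and 0.1502 CPM in young A, young B, old A and old B. Young exceeded old by 1.83-fold (1.08 to 3.25) on platform A and 24.4-fold (9.88 to 77.7) on platform B. A single cell held 21 of the 60 Tcrg-C4 UMIs of young B. The log2 fold change of Tcrg-C4 was -2.54 (SE 0.91) and did not pass the test (adjusted p = 0.278). Tcrg-C2 was the rarest member, with 21, 33, 4 and 0 UMIs in the same order of pools. No cell among the 4154 of old B held a Tcrg-C2 UMI, which allows a share of up to 0.0722%. Young B lay 22.3-fold above the limit of 3 counts in old B, and the counting interval of the fold began at 17.2. A single cell held 27 of the 33 Tcrg-C2 UMIs of young B, which this interval does not cover. The adjusted p of Tcrg-C2 was 0.264. Tcrg-C1 and Tcrg-C2 share sequence: 29% of the 50-base windows in the last 500 bases of Tcrg-C1 also occur in Tcrg-C2 and 0% in Tcrg-C4, so counts of the first pair are uncertain where a read falls in the shared stretch.

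**Figure D1:**
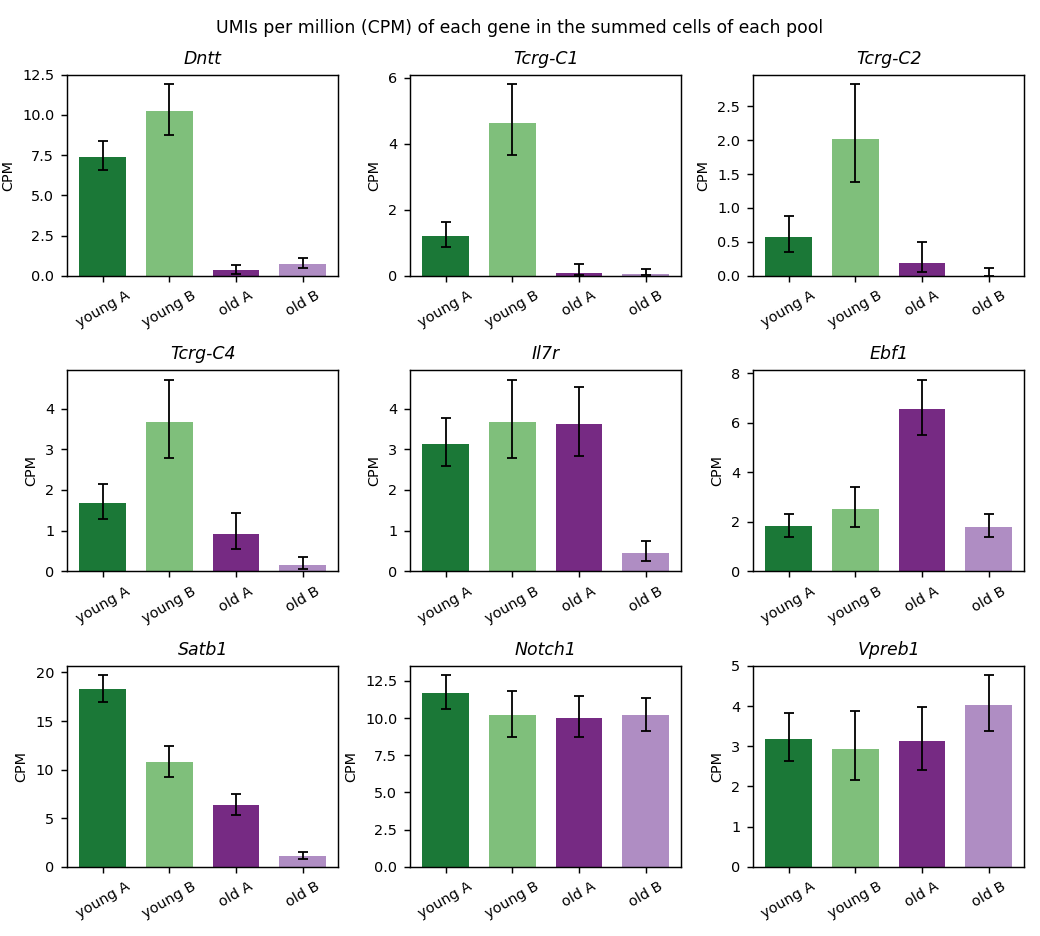
Each panel plots the CPM of a gene in the summed cells of young A and young B (greens) and old A and old B (purples), with bars from 0 and 95% Poisson intervals that cover counting error only. The old bars lie below both young bars for Dntt, the 3 Tcrg-C genes and Satb1, while Il7r is low in old B alone (0.451 CPM) and Ebf1 high in old A alone (6.54 CPM).

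The 2 receptors did not pass the test. Il7r was measured at 3.13 and 3.66 CPM in the young pools, 3.61 CPM in old A and 0.451 CPM in old B. Pool old A thus lay within the range of the young pools and old B below it, and the log2 fold change was -1.27 (SE 0.78, adjusted p = 0.536). Notch1 stood at 11.7, 10.2, 10.0 and 10.2 CPM in young A, young B, old A and old B, and its log2 fold change was -0.16 (SE 0.20, adjusted p = 0.772).

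The transcription factors differed from each other. Satb1 stood at 18.3 CPM in young A, 10.7 in young B, 6.35 in old A and 1.11 in old B. The old pools were lower by 2.88-fold (2.38 to 3.50) on platform A and 9.65-fold (6.74 to 14.2) on platform B, yet the log2 fold change of -2.36 (SE 0.41) missed the threshold with edgeR (adjusted p = 0.0695). With DESeq2 its adjusted p was 3.03e-05. Cells with a Satb1 UMI made up 10.4% and 6.77% of the young pools and 3.58% and 0.746% of the old pools. Ebf1 stood at 1.81 and 2.50 CPM in young A and young B, 6.54 in old A and 1.80 in old B. A single old pool was therefore high, and the log2 fold change was 0.70 (SE 0.58, adjusted p = 0.662).

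Vpreb1 was measured at 3.18, 2.93, 3.13 and 4.03 CPM, and its log2 fold change was 0.16 (SE 0.30, adjusted p = 0.857). The highest value, in old B, rested in part on a single cell of 18189 UMIs. That cell held 27 of the 134 Vpreb1 UMIs of its pool, 13 of the 60 Ebf1 UMIs, 9 of the 25 Dntt UMIs and 16 of the 19 UMIs of Igll1, the partner of Vpreb1 in the surrogate light chain. It also held 1379 UMIs of Ighm, the immunoglobulin mu heavy chain, 15 of the 22 UMIs of Vpreb3, a chaperone of the pre-B cell receptor, and 1 Cd48 UMI. Without this cell, which was picked after its values were seen, old B stood at 3.22 CPM for Vpreb1, 1.41 for Ebf1 and 0.481 for Dntt. Vpreb1 shares 42.6% of the 50-base windows in its last 500 bases with Vpreb2, so its counts are uncertain where a read falls in a shared stretch.

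Over the whole pools, 2 of the 9 genes passed the test with age, both lower in old pools, and 0 passed in the other direction. Among all 13555 genes tested, 2.03% passed, 0.428% lower and 1.6% higher. The median log2 fold change was -2.36 over the 9 genes and 0.01 over all genes. The CPM of both old pools lay below that of both young pools for 5 of the 9 genes, Dntt, Tcrg-C1, Tcrg-C2, Tcrg-C4 and Satb1, which held for 13.6% of all tested genes, and above it for 0 of the 9 and 18.1% of all. The test drew on few samples: without old A or old B neither Dntt (adjusted p = 0.272 and 0.267) nor Tcrg-C1 (0.434 and 0.561) passed, and Tcrg-C1 also missed it without young B (0.123).

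**Figure D2:**
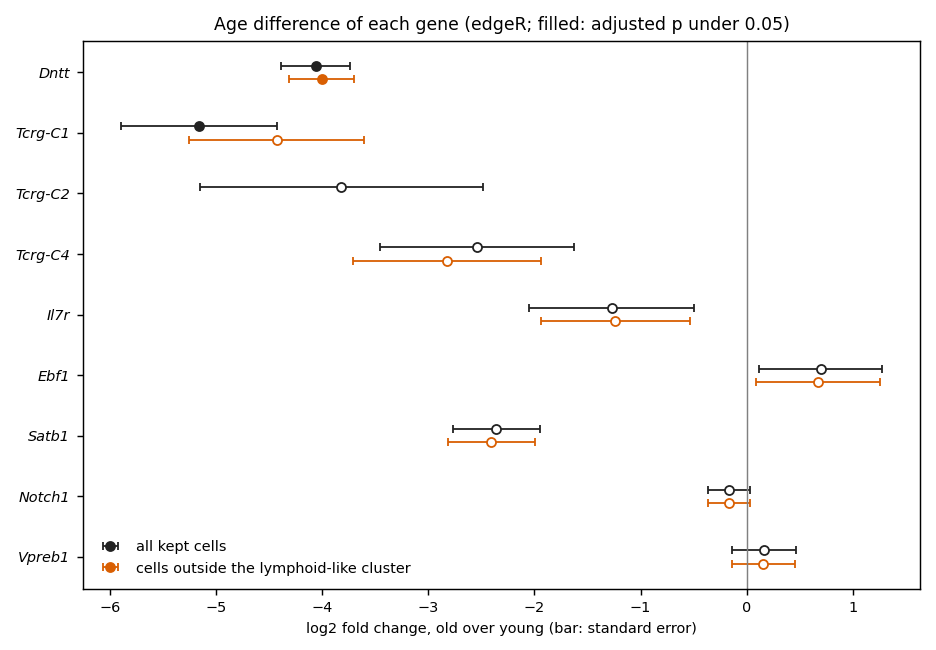
Points give the log2 fold change of old over young for each gene, with bars of 1 standard error, over all kept cells (black) and over cells outside the T or innate lymphoid-like cluster (orange). Filled points have an adjusted p under 0.05, which Dntt has in both sets and Tcrg-C1 over all cells only, and Tcrg-C2 outside the cluster has no point because its old pools hold 0 UMIs there.

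Shares of cells with a UMI depend on depth, so each cell was also thinned to 3000 UMIs, which left out 0 to 176 cells of a pool. Thinned shares of Dntt were 0.925% and 0.820% in the young and 0.159% and 0.169% in the old pools. Those of Tcrg-C1 were 0.328% and 0.319% in the young pools, with 0 cells in either old pool (upper limits of the exact binomial interval 0.117% and 0.0888%). Satb1 was seen in 4.86%, 2.92%, 2.13% and 0.241% of thinned cells. The same 5 genes as by CPM were lower in both old pools, each with p = 0.333 in a two-sided exact permutation test of 2 pools against 2, and 0.33 is the smallest p this design allows. For Tcrg-C2 this order rested on 2, 1, 1 and 0 thinned cells of young A, young B, old A and old B, too few to give a direction. How many of all genes had this order in thinned cells was not counted. Free RNA in the droplets can place a UMI in any cell, so shares in erythroid-like cells are given for comparison. Whether erythroid-like cells lack these transcripts was not tested, and doublets were not called. The 469 erythroid-like cells had a median of 6970 UMIs. Of them, 0.426% held a UMI of Dntt, Tcrg-C1 or Tcrg-C4 (each gene separately). For Il7r the share was 2.35%, for Ebf1 1.28%, for Satb1 3.84%, for Notch1 2.56% and for Vpreb1 4.05%. These shares are sums over pools that differed. Satb1 was seen in 6.22% of 225 erythroid-like cells of young A, 4.05% of 74 of young B, 0.943% of 106 of old A and 0 of 64 of old B, and both erythroid-like cells with Dntt came from young A. The Satb1 shares of the whole young A, young B and old A pools lay above these values. The Vpreb1 shares of the whole pools (2.12%, 2.05%, 1.89% and 2.50%) lay below those of the erythroid-like cells of the same pool (3.56%, 2.70%, 3.77% and 7.81%). The latter rest on 8, 2, 4 and 5 cells. For Il7r the whole pool lay below in young A (1.27% against 3.11%) and old A (1.35% against 2.83%). It lay above in young B (1.38% against 1.35%) and old B (0.169% against 0%). The erythroid-like Il7r values rest on 7, 1, 3 and 0 cells of young A, young B, old A and old B. Those of young B and old B are too few to give a direction. How much of either gene is free RNA was not tested. For the rarer genes there were too few erythroid-like cells in a pool for such a comparison.

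The cells were clustered with the 9 genes left out of the variable genes, which gave 14 clusters. A T or innate lymphoid-like cluster of 88 cells, 0.59% of all, had 10 of 16 markers of that list raised. Its leading genes were Xcl1, Cxcr6, Trbc2, Lgals3, Cd7, Ccr2, Ncr1, Irf8, Il7r and Ms4a4b. It held 27, 25, 28 and 8 cells of young A, young B, old A and old B, or 0.520%, 1.11%, 0.841% and 0.193% of them, an order that does not separate the ages. Il7r was seen in 50% of its cells, against 0% to 2.95% in each other cluster, and stood at 181 CPM. The cluster held 35.2% of all Il7r UMIs (exact interval 29.5 to 41.3), 38.7% of those of Tcrg-C1 (30.1 to 47.9) and 33.8% of those of Tcrg-C4 (26.2 to 42.1). A single cell outside it held 41 of all 124 Tcrg-C1 UMIs, and the intervals do not cover such spread between cells.

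Tcrg-C2 was seen in 6 of the 88 cells (6.82%), at 19.4 CPM, with 17.2% of its UMIs in the cluster (8.59 to 29.4). A single cell outside the cluster held 27 of all 58 Tcrg-C2 UMIs, a spread that this interval does not cover. By cells, 6 of the 13 with a Tcrg-C2 UMI were in the cluster. Satb1 was seen in 11 of the 88 cells (12.5%), at 33.02 CPM, and Notch1 in 10 (11.4%), at 19.4 CPM. Dntt was seen in a single cell of the cluster, with 28 UMIs, and Vpreb1 in none of the 88, which allows a share of up to 3.41%. Rag1 and Rag2, the recombinase genes, and Igll1 were also at 0 there. Per pool, Il7r in the cluster was at 179 and 218 CPM in young A and young B, 189 in old A and 90.1 in old B, the last from 6 UMIs in 8 cells. Tcrg-C1 in the cluster stood at 123 and 203 CPM in the young pools (20 and 28 UMIs) and at 0 UMIs in both old pools, which had 28 and 8 of its cells. The limit of 3 counts there lay below both young levels of Tcrg-C1 in each old pool (20.2 CPM in old A). The other gamma chain genes were still seen in old cells of the cluster. Tcrg-C4 stood at 61.7 CPM in young A, 203 in young B and 53.9 in old A, with 3 UMIs in old B. Tcrg-C2 had 2, 4, 4 and 0 UMIs in young A, young B, old A and old B, too few to give a direction. No test of age within the cluster was made because old B had fewer than 10 cells.

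Outside the cluster, 1 of the 9 genes passed the test with age, against 1.85% of all genes. Dntt was lower in old pools by a log2 fold change of -4.00 (SE 0.31, adjusted p = 0.0161). Satb1 there had -2.41 (SE 0.41, adjusted p = 0.0726) and Tcrg-C1 -4.43 (SE 0.83, adjusted p = 0.0879). Tcrg-C2 had 48 UMIs in the young and 0 in the old pools outside the cluster, with an adjusted p of 0.0811. The young level lay 16.4-fold above the limit of 3 counts over both old pools, but 27 of the 48 UMIs came from a single cell. In a test of the difference of the age effect inside and outside the cluster, 0 of the 9 genes passed with edgeR, against 0.0968% of all genes. At an unadjusted p under 0.05 the count was 1 of 9, against 370 of all 12396 genes. That test includes the 8 cells of old B in the cluster, fewer than the 10 set for a test within it, so nothing is read from it.

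Dntt and Satb1 were highest, outside the lymphoid-like cluster, in clusters led by other programmes. In the neutrophil or monocyte-like cluster of 541 cells, which was led by Elane and Mpo, Dntt was seen in 46 cells (8.503%) and Satb1 in 150 (27.7%). Dntt stood there at 22.0, 46.2, 6.90 and 10.8 CPM in young A, young B, old A and old B, and Satb1 at 47.7, 36.5, 44.9 and 12.2 CPM. For Satb1 old A thus lay between the young pools within this cluster, unlike in the whole pools, while for Dntt both old pools lay below both young pools. Of the 48 Dntt UMIs of young B here, 16 came from a cell with 20 UMIs of Trbc1, a T cell receptor gene, and 0 of Mpo. Another 6 came from a cell with 26 Trbc1 UMIs and 1 Mpo UMI. The division-like cluster held 173 Dntt UMIs in 23 of 726 cells, at 23.1 and 63.1 CPM in young A and young B, 0 in old A and 0.930 in old B, and 67 of its 89 UMIs in young B came from a single cell. The replication-like cluster had 27 Dntt cells among 1618. Satb1 was also seen in 16.5% of the 194 mast cell or basophil-like cells, at 24.4 CPM. The neutrophil or monocyte-like cluster held 4.97% and 4.99% of young A and young B and 3.03% and 1.69% of old A and old B, the division-like cluster 6.73%, 5.30%, 2.55% and 4.16%, and the replication-like cluster 13.5%, 14.6%, 6.88% and 8.76%, so that all 3 were smaller in both old pools, and their part in the levels of the whole pools was not tested. Levels by cluster are descriptions, since the clusters were made from these cells.

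The lymphoid-like cluster held 1.98% of Ebf1, 0.876% of Notch1 and 0% of Vpreb1 UMIs. Ebf1 was seen in 5 of the 35 plasma cell-like cells, at 17.1 CPM, and elsewhere outside the lymphoid-like cluster at 0.660 to 4.37 CPM. Notch1 had 0 UMIs in plasma cell-like cells, 3.34 CPM in erythroid-like cells, 5.05 CPM in megakaryocyte-like cells and 8.58 to 19.4 CPM in the others. Vpreb1 ranged from 0 to 6.60 CPM, with its highest value in mast cell or basophil-like cells.

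**Figure D3:**
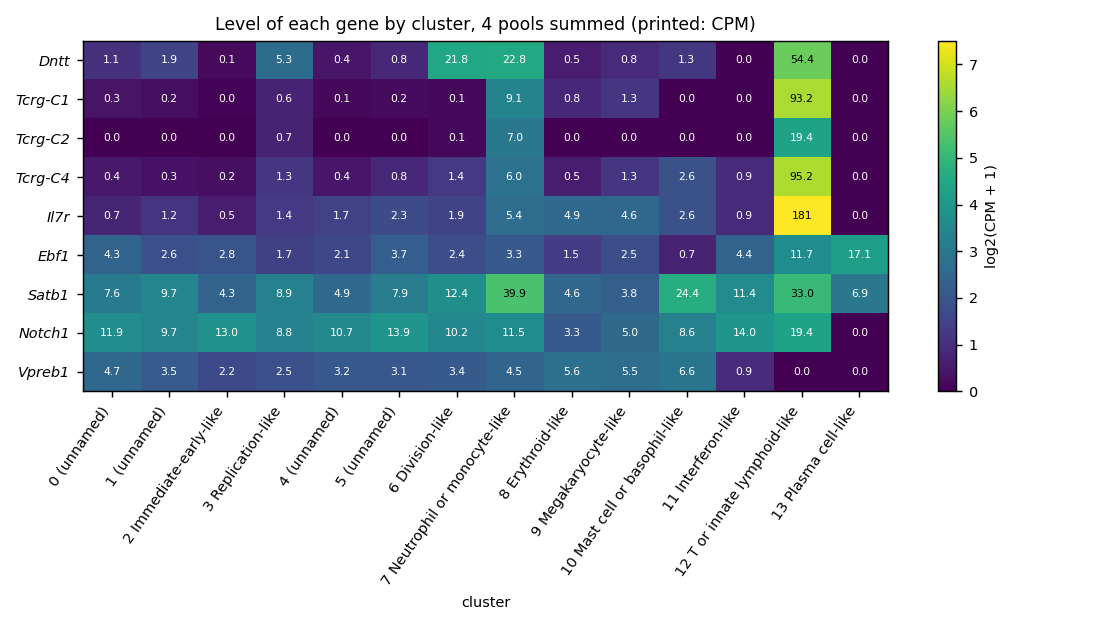
Rows are the 9 genes and columns the 14 clusters with the 4 pools summed, coloured by log2(CPM + 1) and printed in CPM. Il7r (181 CPM), Tcrg-C1 (93.2) and Tcrg-C4 (95.2) stand out in the T or innate lymphoid-like cluster, and Dntt and Satb1 in the neutrophil or monocyte-like cluster (22.8 and 39.9), with Dntt in the lymphoid-like cluster (54.4) resting on a single cell.

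Several pairs of the 9 genes were detected together in single cells. Of 76 cells with a Tcrg-C4 UMI, 40 (52.6%) also held Il7r, against 0.735% of cells without Tcrg-C4, and of 41 cells with Tcrg-C1, 23 (56.1%) held Il7r. Of 146 cells with Dntt, 58 (39.7%) also held Satb1, against 5.30% of cells without Dntt, and 31 (21.2%) held Notch1, against 7.12%. Il7r was held by 12 of them (8.22%), against 0.928%, and Tcrg-C1 by 10 (6.85%), against 0.210%. Dntt and Satb1 were both more frequent in young pools. Within an age, Satb1 was seen in 51 of 132 Dntt cells (38.6%) against 8.77% of the other cells in young pools. In old pools it was seen in 7 of 14 (50%) against 1.91%. Il7r was seen in 33 of 56 Tcrg-C4 cells (58.9%) against 0.868% of the others in young pools, and in 7 of 20 (35%) against 0.603% in old pools. Cells with both Dntt and Satb1 were deeper than most, with a median of 8650.5 UMIs, and depth raises joint detection of any pair. At least 2 of Dntt, Il7r and the 3 Tcrg-C genes were found in 61 cells, 28 and 22 in young A and young B and 9 and 2 in old A and old B, or 0.540%, 0.980%, 0.270% and 0.0481% of them. Of these 61, 31 belonged to the lymphoid-like cluster.

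No member was seen in 12345 of the 14915 cells (82.8%), and at least 5 of the 9 in 8 cells. Those 8 came from young A (5 cells), young B (2) and old B (1), had 5877 to 16968 UMIs, and were placed in the replication-like and the neutrophil or monocyte-like clusters. In 7 of the 8, Trbc1, a constant region of the T cell receptor beta chain, had 14 to 29 UMIs and Mpo, the neutrophil granule peroxidase, 0 or 1. Such cells carried much of the counts of the rarest members. In young B, a cell with 7 of the genes held 27 of the 33 Tcrg-C2 UMIs, and a cell with 6 of them held 41 of the 76 Tcrg-C1 and 21 of the 60 Tcrg-C4 UMIs.

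**Figure D4:**
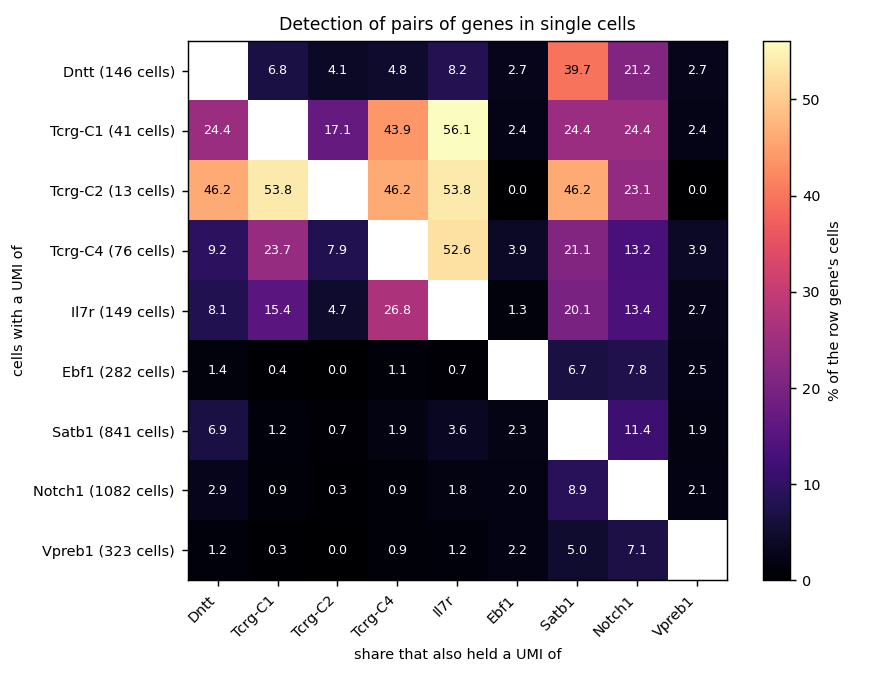
Each square gives the percentage of the cells with a UMI of the row gene that also held a UMI of the column gene, over all 4 pools. Il7r was seen in 56.1% of the 41 Tcrg-C1 cells and 52.6% of the 76 Tcrg-C4 cells, and Satb1 in 39.7% of the 146 Dntt cells, while the high values in the Tcrg-C2 row rest on 13 cells.

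Transcripts of 3 surface proteins that divide this compartment were used to split the cells of each pool. Flt3 marks lymphoid-primed multipotent progenitors, CD48 marks progenitors rather than stem cells, and CD150, encoded by Slamf1, marks stem cells and MPP2. In cells with an Flt3 UMI against those without, 3 of the 9 genes passed, against 4.93% of all genes. Satb1 stood at 27.8, 20.3 and 22.3 CPM with and 14.9, 9.54 and 5.29 CPM without Flt3 in young A, young B and old A, while the 78 Flt3 cells of old B held 0 Satb1 UMIs and the rest of that pool 37. Its log2 fold change was 1.08 (SE 0.16, adjusted p = 2.80e-05). The limit of 3 counts in the 78 Flt3 cells of old B was 4.37 CPM. This lay above the level in the rest of that pool for Satb1 (1.13 CPM) and Dntt (0.767 CPM), so 0 UMIs of either gene there give no direction. Dntt stood at 12.5, 13.7 and 2.30 CPM with and 5.56, 9.81 and 0.205 CPM without Flt3 in the same 3 pools and at 0 UMIs with against 25 without in old B. It was higher with Flt3 by a log2 fold change of 0.95 (SE 0.22, adjusted p = 0.00688), a call lost with DESeq2 (0.497), in thinned cells (0.457) and without young A (0.685). Tcrg-C1 went the other way, with 2, 1, 0 and 0 UMIs in Flt3 cells and 42, 75, 2 and 2 in the rest (log2 fold change -3.01, SE 0.65, adjusted p = 0.00305). Of the 75, a single cell held 41. In young A, 2 of 1229 cells with and 23 of 3960 without Flt3 held Tcrg-C1. In young B these were 1 of 220 and 11 of 2024. The limit of 3 counts in the old Flt3 cells (2.30 and 4.37 CPM) lay above the level in the rest (0.103 and 0.0613 CPM), so their 0 UMIs give no direction. DESeq2 gave Tcrg-C1 no adjusted p, and it was too rare to be tested in thinned cells, without young A or without young B.

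Cells with a Cd48 UMI also had more Dntt and Satb1. Dntt was at 17.2, 11.95, 2.25 and 13.1 CPM with and 3.09, 9.54, 0.108 and 0.0949 CPM without Cd48 in young A, young B, old A and old B. In old B, 9 of the 22 Dntt UMIs with Cd48 came from the cell of 27 Vpreb1 UMIs. Dntt was higher with Cd48 in each pool (log2 fold change 2.21, SE 0.62, adjusted p = 0.0147). The call was lost without young A (0.0904) and without old A (0.0512). Satb1 rose from 15.1, 8.34, 4.69 and 0.696 CPM without to 25.5, 16.6, 20.3 and 8.93 CPM with Cd48 (log2 fold change 1.35, SE 0.28, adjusted p = 0.00291). Vpreb1 passed as well (1.09, SE 0.39, adjusted p = 0.0483), although it was lower with Cd48 in young A (2.77 against 3.37 CPM). It did not pass in thinned cells (0.320), without young B (0.0586), without old A (0.154) or without old B (0.317), whose value with Cd48 held the cell of 27 Vpreb1 UMIs. These 3 calls of 9 stood against 37.6% of all genes, so their number is near the background. Cells with a Cd48 UMI were deeper, with medians of 7211 to 10020.5 UMIs against 5610 to 6655.5. In thinned cells 3 genes passed too, Dntt, Satb1 and Il7r (adjusted p of Il7r 0.00382, against 0.0599 unthinned).

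In cells with a Slamf1 UMI Dntt and Satb1 were lower. Of 8 genes tested 3 passed, all lower with Slamf1, against 2.66% of all genes. Dntt had 1, 3, 0 and 0 UMIs in the 339, 127, 715 and 1188 Slamf1 cells of young A, young B, old A and old B, and 269, 165, 7 and 25 in the others (log2 fold change -3.46, SE 0.49, adjusted p = 6.82e-05). Satb1 stood at 7.197, 1.95, 3.64 and 0.745 CPM with and 19.1, 11.3, 7.19 and 1.29 CPM without Slamf1 (-1.27, SE 0.21, adjusted p = 0.000396). Tcrg-C1 had 0 UMIs in the Slamf1 cells of each pool and 44, 76, 2 and 2 UMIs in the others, with an adjusted p of 0.0264, which was 0.3002 with DESeq2 and 0.0565 without old B. The limit of 3 counts in the Slamf1 cells was 1.14 CPM in young A and 2.93 CPM in young B, against 1.30 and 4.94 CPM in the other cells, so that at this depth the difference within a pool is small against the limit. In thinned cells neither Dntt (0.0828) nor Satb1 (0.535) passed, and Tcrg-C1 was too rare to be tested, as it was without young A or without young B. Tcrg-C2, with 0 UMIs in Slamf1 cells too, was too rare for the test.

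**Figure D5:**
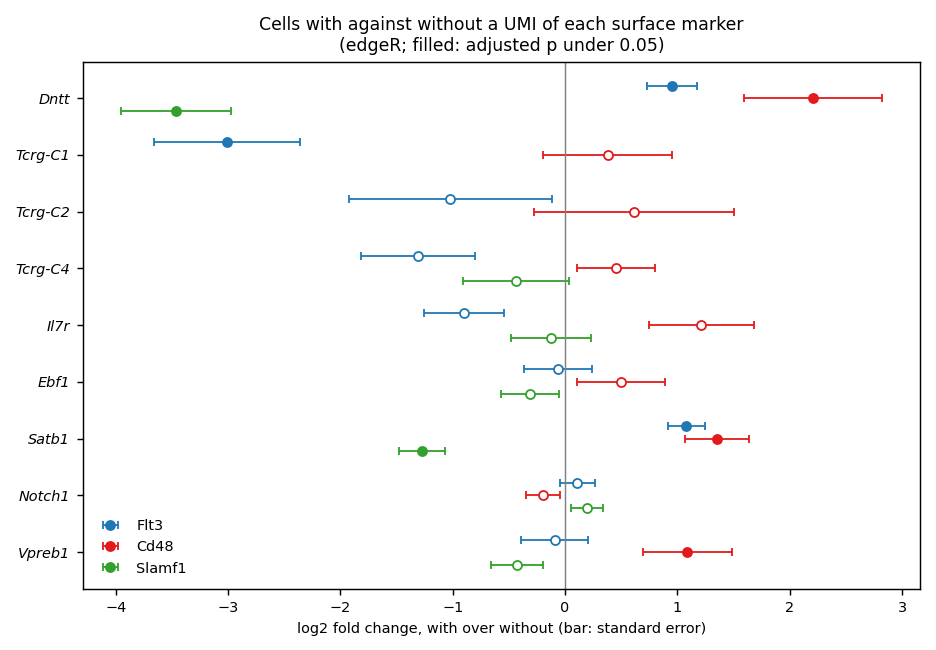
Points give the log2 fold change of each gene in cells with over cells without a UMI of Flt3 (blue), Cd48 (red) or Slamf1 (green), with bars of 1 standard error and filled points at an adjusted p under 0.05. Satb1 and Dntt lie to the right for Flt3 and Cd48 and to the left for Slamf1, and points are left out where a side holds 0 UMIs (Tcrg-C1 for Slamf1) or the gene was not tested.

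Of the 3 markers, Flt3 and Slamf1 themselves passed the test with age, and Cd48 did not. Cells with a Cd48 UMI made up 23.7% and 22.4% of young A and young B and 8.47% and 3.95% of old A and old B (log2 fold change of its level -1.98, SE 0.31, adjusted p = 0.0559). Those with a Slamf1 UMI made up 6.53% and 5.66% of the young and 21.5% and 28.6% of the old pools (2.13, SE 0.19, adjusted p = 0.0206). Ages were therefore also compared within Cd48 classes. In cells with a Cd48 UMI, 0 of 6 genes passed with edgeR, against 0.323% of all genes, and 0 with DESeq2. At an unadjusted p under 0.05 with edgeR there were 3, Il7r, Ebf1 and Vpreb1, all toward higher values, against 593 of all 10512 genes. Dntt had a log2 fold change of -1.11 (SE 0.64, adjusted p = 0.991). In old B a single Cd48 cell held 13 of the 14 Ebf1, 27 of the 33 Vpreb1 and 9 of the 22 Dntt UMIs of these cells. In cells without a Cd48 UMI, 1 of 8 passed, against 2.11% of all genes: Dntt at 3.09, 9.54, 0.108 and 0.0949 CPM (-5.95, SE 0.54, adjusted p = 0.00906), with 2 and 3 UMIs in the old pools. That call was lost without old A (0.260) and without old B (0.273). Satb1 there had -2.54 (SE 0.43, adjusted p = 0.0508). The difference of the age effect between the 2 classes was not tested.

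Other genes of the same pathways were read from 4 lists, whose counts stand against the 2.03% of all tested genes that passed with age (0.428% lower and 1.6% higher). Of the lymphoid receptors and signalling genes, 3 of 17 tested passed with age, all lower, and the median log2 fold change of the list was -0.75. Tespa1, which acts in T cell receptor signalling, stood at 19.0 and 15.5 CPM in young and 4.52 and 2.10 CPM in old pools (log2 fold change -2.52, adjusted p = 0.0217). Flt3 was lower by a log2 fold change of -2.46 (adjusted p = 0.0141) and Cd52, a lymphocyte surface glycoprotein, by -2.17 (adjusted p = 0.0374). Of the partners of Il7r in signalling, the kinase genes Jak1 and Jak3 had log2 fold changes of 0.08 and -0.25, the transcription factor genes Stat5a and Stat5b 0.06 and -0.0058, and Il2rg, the common gamma chain, 0.03 (adjusted p = 0.608 to 0.993).

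Of the recombination and antigen receptor genes, 15 of 23 could be tested, 1 passed in each direction, and the median was 0.00093. Trbc1 stood at 6.56 and 9.02 CPM in young and 0.914 and 0.961 CPM in old pools (-3.09, adjusted p = 0.0177), and Cd79a, a signalling chain of the B cell receptor, at 0.302 and 0.244 against 6.69 and 2.73 CPM (4.01, adjusted p = 0.0251). The others nearest the threshold were Ighm (1.45, adjusted p = 0.102) and Trac (2.32, 0.103) toward higher and Trbc2 (-1.90, 0.173) and Lck (-0.67, 0.186) toward lower values. Rag1 and Rag2 had 0 to 3 and 0 to 13 UMIs per pool and were not tested.

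Of the lymphoid transcription factors, 19 of 23 were tested, the median was 0.12, and 1 passed, Id3, an inhibitor of E proteins, at 0.988 and 0.427 CPM in young and 19.7 and 3.33 CPM in old pools (3.81, adjusted p = 0.0217). Next came Zbtb16 (0.60, adjusted p = 0.246) and Id2 (0.84, 0.272) toward higher and Runx3 (-1.05, 0.0504), Sox4 (-0.99, 0.0867) and Ikzf2 (-0.88, 0.0942) toward lower values. Of the Notch pathway, 0 of 20 genes tested passed with edgeR, and the median was 0.30. At an unadjusted p under 0.05, 3 were higher and 1 lower, against 2175 of all 13555 genes tested in either direction. The ligand genes Dll4 and Jag1 had log2 fold changes of 2.12 (adjusted p = 0.140) and 2.10 (0.215) and the feedback gene Nrarp 0.95 (0.153). Maml3, a coactivator, had -0.68 (0.171), Notch2 -0.39 (0.458) and Maml1 -0.33 (0.605). Hes1, a Notch target that led the immediate-early-like cluster, was at 291 CPM in old A and 2.74 to 6.997 CPM in the other pools (adjusted p = 0.337).

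Likeness of pattern was measured as Pearson's r of log2(CPM + 1) over the 14 clusters, a description over points that share libraries and depth. For Dntt the 3 nearest of 13076 genes were Clec10a (r = 0.96), Trbc1 (0.91) and Bcl11b (0.90), although the highest Dntt value among the clusters is the single cell of 28 UMIs and 67 of the 173 Dntt UMIs of the division-like cluster are from 1 cell. For Il7r they were Cxcr6 (0.96), Arg1 (0.95) and Cysltr1 (0.94), and for Tcrg-C4 Klrb1f (0.96), Cxcr6 (0.95) and Txk (0.94), so that Cxcr6 was common to both. Satb1 was nearest to Gpr160 (0.95), Milr1 (0.94) and BC035044 (0.93), and Notch1 to Tnfaip8 (0.98), Ctsc (0.97) and Pstpip1 (0.97). Ebf1 was nearest to Card6 (0.94), Lgmn (0.93) and Aldh3b1 (0.92), and Vpreb1 to Zfp384 (0.94), Jmjd4 (0.93) and 1110008L16Rik (0.93).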

How the data were processed

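Single-cell RNA-seq was available for 4 pools, 2 per age, and pools were the replicates. The deposited values were raw UMI counts per gene and barcode, which the authors made with Cell Ranger (2.2.0 in the submitters' processing notes) on GRCm38 (annotation release: not given in the sources used here). Barcodes within 2 SD of a pool's mean log UMI count were kept, and doublets were not called. Counts summed per pool were tested with edgeR 4.0.16 (quasi-likelihood test, TMM, filterByExpr, platform as block, Benjamini-Hochberg over all genes tested, threshold 0.05) in R 4.3.3, with DESeq2 1.42.0 as an alternative. The SE given with edgeR is the absolute log2 fold change over the square root of the F statistic. It thus restates that test and is no separate measure of spread. Shares of cells were compared after thinning to 3000 UMIs by an exact permutation test of pools.

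Cells were clustered with Seurat 5.3.0 after integration (2000 variable genes less 3 members among them, 15 components, resolution 0.5, cell-cycle scores of cyclone in scran 1.30.0 regressed), and a cluster was named from at least 3 raised markers. The members, gene lists and tests were chosen with earlier results of these data known. All members are named. Of each other list, up to 3 genes per direction are named, those past the threshold with the largest change and then those with the smallest p. For members seen in at least 50 cells the 3 genes of highest likeness are named. Rag1, Rag2 and Hes1 were named after their values were seen. The A pools and the B pools shared a platform by the labels, and deviations of pools from their age means correlated across 13555 genes (r = 0.58), and platform was the block. Scripts were tested on simulated data. Intervals (95%) and limits from a count of 0 (3 counts) cover counting error only. A 3′ count depends on the annotated gene end, and strand use in counting was not stated. Alternatives were DESeq2, its size factors, no low-count filter, no block, all barcodes, thinning, other clusterings, leaving out each pool and, chosen after seeing the data, counting a gene at most 1 time per cell.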

Additional observations from a re-analysis of the deposited data

Results flagged for a closer look

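For 4 genes the platforms differed in the sign of the old minus young difference of log2(CPM + 1), from 1 pool per age on each platform, and the difference between platforms was not tested. By the study's methods, old A and young B had more reads per cell and more mice than young A and old B. Platform, reads per cell and number of mice cannot be told apart in this contrast. Il7r had 0.16 on platform A and -1.68 on platform B. Ebf1 had 1.42 on platform A and -0.32 on platform B. Notch1 had -0.21 on platform A and 0.0041 on platform B, and Vpreb1 had -0.019 and 0.36. Counting intervals of the young over old fold covered 1 on platforms A and B for Notch1 (0.990 to 1.39 and 0.823 to 1.20). The same held for Vpreb1 (0.745 to 1.40 and 0.512 to 1.02). For Il7r the interval covered 1 on platform A only (0.642 to 1.18) and for Ebf1 on platform B only (0.909 to 2.10). Where an interval covers 1, the sign is within counting error.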

How the results depend on the processing

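With 2 pools per age, the calls rested on the platform block and on single pools. With no replicate block, 0 of the 9 genes passed with age over whole pools, 0 outside the lymphoid-like cluster, 0 in cells without a Cd48 UMI and 0 of all genes, in place of 2, 1, 1 and 275. Dntt then had an adjusted p of 0.151 and Tcrg-C1 of 0.205. Over whole pools 1 of the 9 passed with all barcodes, 1 in thinned cells and 1 with each gene counted at most 1 time per cell (chosen after seeing the data), Tcrg-C1 being lost each time. All genes called numbered 349 with all barcodes, 216 in thinned cells and 352 with each gene counted at most 1 time per cell. They numbered 543 with DESeq2 and 774 with no low-count filter. DESeq2 called 3 members outside the cluster, 3 in cells without Cd48 and 1 in the Flt3 split, and thinning left 1 in the Flt3 split and 0 in the Slamf1 split. For the cluster, Cd48, Flt3 and Slamf1 comparisons, counts of all genes under other settings are not given here. Nothing about the members is therefore read from their counts in those settings. Leaving out each pool gave 0 to 4 members over whole pools, 0 to 287 of all genes, 0 to 3 outside the cluster, 0 to 4 in cells without Cd48, 1 to 4 for Flt3 and 1 to 3 for Cd48. These fits have no block and assume that the lone pool of an age varies like the other age's. All genes called were 287 without young pool A, 160 without young pool B, 4 without old pool A and 0 without old pool B. Without young pool A Tcrg-C2 (0.00619) and Tcrg-C4 (0.0139) passed over whole pools. No log2 fold change past the threshold changed sign, but others did when a pool was left out, with ranges over the pools left out of -0.15 to 1.38 for Ebf1, -0.35 to 0.015 for Notch1 and -0.19 to 0.51 for Vpreb1 with age over whole pools, -0.15 to 1.33, -0.36 to 0.012 and -0.19 to 0.50 outside the cluster and -0.50 to 1.33, -0.28 to 0.028 and -0.30 to 0.25 in cells without Cd48. The ranges were -0.20 to 0.031 for Ebf1, -0.14 to 0.17 for Notch1 and -0.31 to 0.31 for Vpreb1 in the Flt3 split, -0.027 to 1.38 for Tcrg-C1, -0.035 to 2.38 for Tcrg-C2 and -0.012 to 0.76 for Ebf1 in the Cd48 split, and -0.76 to 0.011 for Tcrg-C4 and -1.0002 to 0.34 for Il7r in the Slamf1 split. With DESeq2 the Flt3 split gave 0.82 for Tcrg-C2 and 0.054 for Vpreb1, thinned cells gave 0.28 for Vpreb1 with Flt3 and 0.26 for Il7r with Slamf1, and Vpreb1 in cells without Cd48 had 0.0088 with no replicate block, each against a value below 0 in the fits reported. The age test within the lymphoid-like cluster was not run, since old pool B had 8 cells there, nor was any alternative without integration, where no such cluster was named. With 0 to 7 UMIs of the rarest members in an old pool, depth limits their values.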
